A study of Mus musculus with 2 samples.

Results

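The S100 calcium-binding genes described here are S100a8, S100a9, S100a4, S100a6, S100a10, S100a11 and S100a13. They were taken by gene symbol from the count matrices of mouse bone marrow cells, which list 32285 genes, and all 7 had UMIs (unique molecular identifiers, 1 for each captured transcript) in both libraries. Their UMIs were summed per cell type and library and are given as counts per 1000000 UMIs (CPM). The UMIs come from the 3′ ends of transcripts, 1 for each molecule, so CPM values of different genes can be set side by side without a correction for length.

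S100 proteins are small proteins with EF-hand loops that bind calcium and then change shape and bind partner proteins. S100a8 and S100a9 pair into calprotectin, a major cytosolic protein of neutrophils that is released in inflammation, withholds metals from microbes and is known as a ligand of the receptors Tlr4 and RAGE (Ager). S100a10 binds annexin A2 (Anxa2), S100a11 binds annexin A1 (Anxa1), S100a6 (calcyclin) binds Cacybp, S100a4 binds non-muscle myosin heavy chain (Myh9), and S100a13 takes part in the release of proteins that lack a signal peptide. In the mouse genome (GRCm38) the 7 genes lie on chromosome 3 within 3050209 bases and all are protein-coding. That stretch begins with S100a13 (90514435 to 90524581) and ends with S100a10 (93555080 to 93564643), and S100a11 lies at 93520488 to 93526287. S100a4 (90603771 to 90606045), S100a6 (90612882 to 90624181) and S100a8 (90668978 to 90670035) are on the plus strand, while S100a9 (90692632 to 90695721) is on the minus strand, 22596 bases from S100a8.

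The study asked how loss of the kinase Map4k4 in blood-forming cells bears on neutrophil differentiation, and profiled marrow by droplet single-cell RNA-seq. The mice were 13 to 14 weeks old on a C57BL/6 background, and each library mixed 2 parts of c-Kit+ cells, enriched with magnetic beads, with 3 parts of marrow from which red cells had been lysed. There was 1 library per genotype, labelled Ctrl and cKO. Both carry Mx1-Cre, a recombinase driven by an interferon-inducible promoter and switched on with poly I:C, which acts in blood-forming and other interferon-responsive cells. The study's methods write the control as Mx1-Cre Map4k4-/- and the cKO as its Mx1-Cre Map4k4 f/f littermates. They state poly I:C for the f/f mice, while for the controls it is not given in the sources used here, nor is the number of mice pooled per library. Map4k4 itself was at 72.3 CPM (95% interval 70.3 to 74.3) in the library labelled Ctrl and 64.0 (62.0 to 66.0) in the one labelled cKO, which is a small difference, and tags read at the 3′ end do not show whether an exon elsewhere in the transcript is lost. Both levels are over all kept cells, and the libraries differ in their shares of cell types. By RT-PCR, the paper reports that Map4k4 transcript was lost in stem and progenitor cells after poly I:C. The deletion itself cannot be read from the counts used here, so genotype is used below only as the label of a library.

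No ratio between the libraries could be checked against replicates, so no p-value was computed. Intervals are exact 95% intervals (Poisson for a level, binomial for a ratio or a share) that cover counting error only, and a member is called higher or lower when the ratio reaches 2-fold. After filtering, 8795 of 10220 barcodes of the Ctrl library (70435113 UMIs, median 4940 per cell) and 5347 of 6872 of the cKO library (63245849 UMIs, median 8783 per cell) were kept as cells. Of these, 81.1% and 87.1% were given a cell type from marker genes that include no S100 gene, and 8 types had enough cells in both libraries to be compared. Neutrophil differentiation was followed from ProNeu-like cells (primary granule genes such as Elane and Mpo) through cycling PreNeu-like and non-cycling imNeu-like cells (secondary granule genes such as Camp and Ltf) to mNeu-like cells (Retnlg, Mmp8, Cxcr2), with cells between the last stages kept as imNeu/mNeu-mixed. In each of the 8 types, markers of its own list were among the 10 leading genes and none of another list was. Cycling genes were never counted as another list. The types were gated on these same lists, so this is no independent check of them. The libraries shared 3010 cell barcodes. Of the 1947 shared barcodes that were typed in both, 14.2% had the same type, against 13.2% from the type shares alone.

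The annotated starts of the members differ in sequence, and windows of 100 bases (80 before and 20 from the start, RefSeq, GRCm38.p6) are shown. They cover the pair abundant in neutrophils (S100a8, S100a9) and the member highest in monocyte-like cells (S100a4). They also cover the members that rose at each step from ProNeu-like to mNeu-like cells in both libraries (S100a6, S100a11). Capitals mark TATAAA.
S100a8, chr3:90668991-90669090, plus strand: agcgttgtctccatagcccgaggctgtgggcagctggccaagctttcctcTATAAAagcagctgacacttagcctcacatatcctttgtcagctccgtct
S100a9, chr3:90695702-90695801, minus strand: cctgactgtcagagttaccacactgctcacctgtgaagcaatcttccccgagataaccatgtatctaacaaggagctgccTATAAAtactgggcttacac
S100a4, chr3:90603690-90603789, plus strand: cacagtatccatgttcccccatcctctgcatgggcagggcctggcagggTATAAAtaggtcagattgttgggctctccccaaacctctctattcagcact
S100a6, chr3:90612814-90612913, plus strand: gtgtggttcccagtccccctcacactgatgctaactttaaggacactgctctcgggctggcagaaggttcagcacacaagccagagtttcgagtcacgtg
S100a11, chr3:93520416-93520515, plus strand: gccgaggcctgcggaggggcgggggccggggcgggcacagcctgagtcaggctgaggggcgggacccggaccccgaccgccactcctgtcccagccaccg

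TATAAA, searched on both strands in 300 bases around each start, was present in S100a8 (at -30), S100a4 (at -31) and S100a9 (at 1) and absent from S100a6, S100a11 and S100a13. It is held by 13.6% of the 32851 promoters of that length. S100a10 had no promoter in the reference used, so each motif search covered the other 6 members. TTGCNNAA, a form of the C/EBP motif, matched only S100a9 (at -236) among these, against 10.8% of promoters. GAGGAA, a core of the PU.1 motif, matched S100a8 (at -170 and -36), S100a4 (at 20) and S100a11 (at -153), against 28.3% of promoters. GC content of the windows shown was lowest for S100a9 (47%) and highest for S100a11 (80%). The motifs overlap at none of these positions, and a match here is a description of the sequence only.

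S100a8 and S100a9, the subunits of calprotectin, were the most abundant members and were high in every neutrophil type from the PreNeu-like stage on. S100a8 in the Ctrl library was at 16015 CPM in ProNeu-like cells, 113927 in PreNeu-like cells, 122310 in the imNeu-like stage and 109552 in the mNeu-like stage. The cKO library held 18084, 129721, 145199 and 139639 CPM in the same order. S100a9 was at 15155, 146100, 166511 and 154410 CPM in Ctrl and 17142, 160609, 187380 and 178396 CPM in cKO. Together both transcripts made up 28.9% (28.8 to 28.9) of all UMIs of imNeu-like cells in Ctrl and 33.3% (33.2 to 33.3) in cKO, and the middle 50% of single cells held 25.4 to 31.6% and 29.8 to 35.6%. The whole group of 7 genes took 11.05% of the UMIs of all kept cells in Ctrl and 19.4% in cKO. In the same libraries mNeu-like cells were 15.1% of kept cells in Ctrl and 22.0% in cKO, and imNeu-like cells were 16.2% and 21.1%. These cells were also deeper in cKO. The median was 2538 UMIs in Ctrl and 6235.5 in cKO in mNeu-like cells, and 4564 and 10581 in imNeu-like cells. All mNeu-like cells together held 3741976 and 7817914 UMIs, and all imNeu-like cells 7464811 and 12184700. The share of S100a8 and S100a9 was higher in cKO within types too, at 26.4% and 31.8% in mNeu-like cells. How much of the difference in the total goes with the numbers or the depth of cells was not tested.

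**Figure D1:**
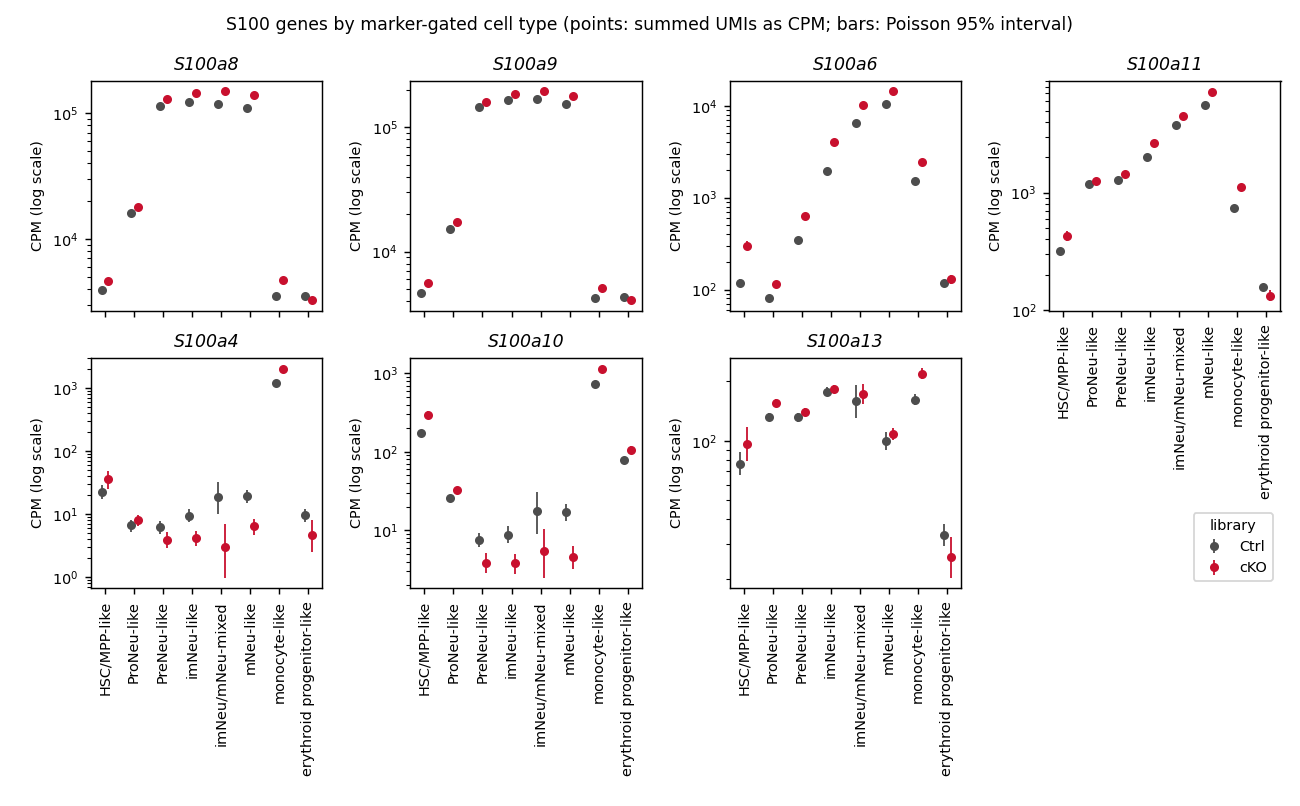
Level of each S100 gene (CPM, log axis) in the 8 cell types, with 1 point per library (Ctrl and cKO) and lines for the 95% Poisson interval. S100a8 and S100a9 are highest from PreNeu-like to mNeu-like cells (S100a8 at 109552 to 149508 CPM), S100a6 and S100a11 are highest in mNeu-like cells, and S100a4 and S100a10 are highest in monocyte-like cells.

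The step from ProNeu-like to PreNeu-like cells held most of this rise. S100a8 rose 7.11-fold in Ctrl and 7.17-fold in cKO at that step, and S100a9 rose 9.64-fold and 9.37-fold, while 8.44% and 9.1% of all genes tested rose at least 2-fold. At both later steps each of them moved by less than 2-fold. S100a9 rose more than S100a8, so that the ratio of their UMIs went from 0.946 in ProNeu-like cells to 1.28, 1.36 and 1.41 at the PreNeu-like, imNeu-like and mNeu-like stages of Ctrl. In cKO the ratio was 0.948, 1.24, 1.29 and 1.28.

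Within ProNeu-like cells both genes rose, and their ratio shifted. The cells were put in 6 bins by their score for secondary granule genes divided by that for primary granule genes. In the lowest bin (277 cells in Ctrl, 313 in cKO) S100a8 was at 5679 and 5944 CPM and S100a9 at 2918 and 3003 CPM. The UMIs of S100a9 were then 0.514 (0.504 to 0.524) of those of S100a8 in Ctrl and 0.505 (0.498 to 0.513) in cKO. The ratio was 0.766 and 0.904 in the next bin, passed 1 in the third bin (1.03 in both libraries), and was 1.19 and 1.22 in the fifth. In the highest bin S100a8 had reached 63019 and 73731 CPM and S100a9 74077 and 81473 CPM, beside a rise of Camp, a gene of the score, from 368 to 29525 CPM in Ctrl. That bin held 29 cells in Ctrl and 95 in cKO, where the median cell had 1642 UMIs. Along these bins S100a8 UMIs thus exceeded S100a9 UMIs where the secondary granule signal was least, in both libraries.

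**Figure D2:**
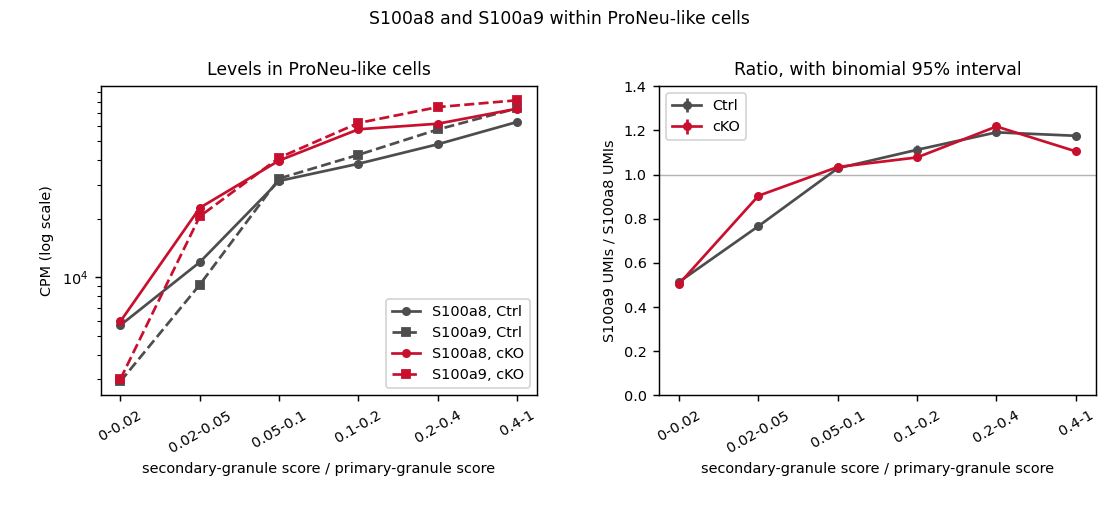
S100a8 and S100a9 in ProNeu-like cells binned by the ratio of the secondary to the primary granule score, as CPM (left, log axis) and as S100a9 UMIs over S100a8 UMIs with the 95% binomial interval (right). The ratio starts at 0.514 in Ctrl and 0.505 in cKO and is above 1 from the third bin on in both libraries.

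In the compared types outside the neutrophil path, S100a8 and S100a9 were at a few percent of their imNeu-like level. Types with fewer than 30 cells in a library varied. Macrophage-like cells (51 in Ctrl, 15 in cKO) held 15399 and 12486 CPM of S100a8. Their S100a9 was at 22418 and 14819 CPM. In Ctrl these were 12.6% and 13.5% of the imNeu-like levels. Plasma cell-like cells held 8708 and 10066 CPM of S100a8, and megakaryocyte-like cells 3568 and 2345. The median plasma cell-like cell held only 2760 and 2085 CPM, and the median megakaryocyte-like cell 3283 and 2153. HSC/MPP-like cells (stem cells and multipotent progenitors) held 3896 CPM of S100a8 in Ctrl and 4611 in cKO, monocyte-like cells 3551 and 4707, and erythroid progenitor-like cells 3513 and 3284. B-like cells, which should lack calprotectin, held 7564 CPM in Ctrl (407 cells) and 4996 in cKO (13 cells). As a share of the imNeu-like level, S100a8 was at 6.18% and 3.44% in B-like, 3.19% and 3.18% in HSC/MPP-like and 2.90% and 3.24% in monocyte-like cells. After each cell was thinned to 1000 UMIs, an S100a8 UMI was found in 99.8% and 100% of B-like cells (median depth 2285 and 4011 UMIs before thinning, against 9211.5 and 11208 in HSC/MPP-like cells), 96.8% and 90.8% of HSC/MPP-like cells and 92.9% and 91.5% of monocyte-like cells. The shares in HSC/MPP-like and monocyte-like cells lay below those in B-like cells and are not read as expression. The granule genes Camp, Ngp, Ltf and Lcn2 were at 2.10 to 3.41% of their imNeu-like levels in HSC/MPP-like cells of Ctrl and at 1.60 to 2.49% in cKO, and in monocyte-like cells at 1.81 to 2.98% and 1.30 to 2.28%. S100a8 lay within that range in Ctrl and above it in cKO, and the part of free RNA in these levels was not tested. These are summed levels, and the median cell was lower in cKO than in Ctrl. It held 3554 CPM of S100a8 in Ctrl and 2829 in cKO in HSC/MPP-like cells, and 3146 and 2621 in monocyte-like cells. In the lowest ProNeu-like bin S100a8 was above its HSC/MPP-like level in both libraries, while S100a9 was below it. Set beside B-like cells, S100a8 in that bin was lower in Ctrl (5679 against 7564 CPM) and higher in cKO (5944 against 4996). S100a9 there was below its B-like level in both libraries (2918 against 9439 and 3003 against 6415 CPM).

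S100a6 and S100a11 were the members that rose at each step from ProNeu-like to mNeu-like cells in both libraries, and both were highest in mNeu-like cells. S100a6 was at 80.04 CPM (75.2 to 85.2) in ProNeu-like, 349 in PreNeu-like, 1929 in imNeu-like, 6499 in imNeu/mNeu-mixed and 10431 (10327 to 10535) in mNeu-like cells of Ctrl. The cKO values were 116 (110 to 122), 636, 4069, 10119 and 14353 (14269 to 14437) CPM. S100a6 therefore rose 130-fold in Ctrl and 124-fold in cKO from the first to the last stage, where 17.6% and 17.7% of genes tested rose at least 2-fold. It rose at least 2-fold at each of the 3 steps in both libraries, by 4.37-, 5.52- and 5.41-fold in Ctrl and by 5.50-, 6.40- and 3.53-fold in cKO. At the second of these steps, from PreNeu-like to imNeu-like cells, S100a6 was the only member called higher, beside 8.5% of genes in Ctrl and 9.63% in cKO.

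S100a11 rose later and less. It stood at 1185 CPM (1166 to 1204) in ProNeu-like and 1292 in PreNeu-like cells of Ctrl, then at 2021 in imNeu-like cells and, in mNeu-like cells, at 5606 (5530 to 5682). In cKO it stood at 1267 (1247 to 1286), 1447, 2661 and 7266 (7207 to 7326) CPM. Most of the 4.73-fold rise in Ctrl and the 5.74-fold rise in cKO fell in the last step, which was 2.77- and 2.73-fold, against 12.2% and 13.4% of genes that rose at least 2-fold there. For both S100a6 and S100a11, all 28 pairs among the 8 types stood in the same order in the 2 libraries. The other members kept 21 (S100a4) to 27 (S100a9, S100a10, S100a13) of 28 pairs in order, and the pairs that swapped were mostly at low or similar levels.

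The same genes were followed in 10 bins of non-cycling imNeu-like, mixed and mNeu-like cells (2895 in Ctrl, 2501 in cKO), set by the share of the mNeu score in the sum of the mNeu and secondary granule scores. S100a6 went from 1260 to 11517 CPM in Ctrl, rising at 9 of 9 steps, and from 2630 to 14734 CPM in cKO, rising at 8 of 9. S100a11 went from 1800 to 6465 CPM and from 2222 to 8229 CPM, rising at 9 of 9 steps in both. S100a9 stayed within 149476 to 171719 CPM in Ctrl and 165728 to 195966 in cKO, with no steady rise. S100a13 fell over the same bins from 180 to 90.8 CPM in Ctrl and from 188 to 86.8 in cKO. A gradual rise of S100a6 and S100a11 and a fall of S100a13 were thus seen at a nearly level S100a9.

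**Figure D3:**
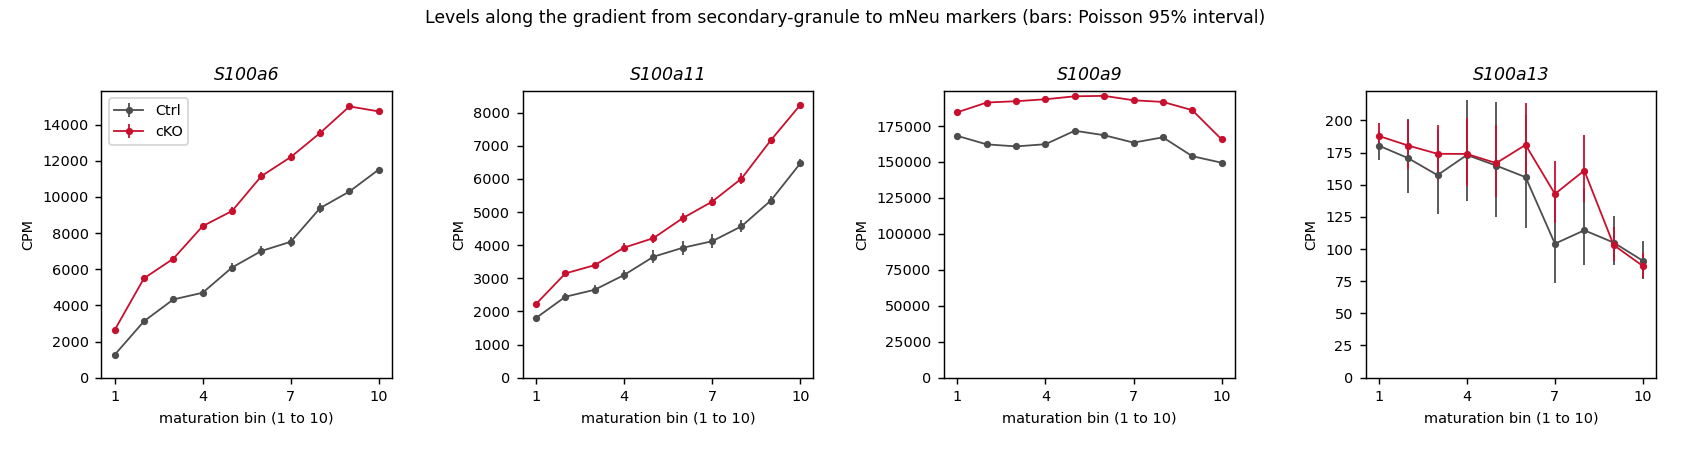
Levels (CPM) of S100a6, S100a11, S100a9 and S100a13 in 10 bins from secondary granule to mNeu markers, with 1 line per library and bars for the 95% Poisson interval. S100a6 and S100a11 rise along the bins and lie higher in cKO in 10 of 10 bins, S100a9 is nearly level, and S100a13 falls.

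Among mNeu-like cells, those with more Mmp8 than Il1b UMIs (1122 in Ctrl, 1042 in cKO) were set beside those with more Il1b (125 and 112). Mmp8 is a granule collagenase and Il1b a cytokine of mature neutrophils. S100a8 was at 112787 CPM in the first and 76497 in the second set in Ctrl, and at 142310 and 104929 in cKO. S100a9 was at 159163 and 106258 CPM, and at 181330 and 143697. S100a6 was also lower in the Il1b set, at 9119 beside 10514 CPM in Ctrl and 11079 beside 14605 in cKO. S100a11 was higher in the Il1b set, at 6050 beside 5561 CPM in Ctrl and 8621 beside 7164 in cKO, the opposite direction to S100a8, S100a9 and S100a6. No member with at least 50 CPM differed by 2-fold between the sets in either library.

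S100a4 and S100a10 were highest in monocyte-like cells and near the floor along the neutrophil path. S100a4, known from motile cells, was at 1192 CPM (1165 to 1219) in monocyte-like cells of Ctrl and 2045 (2002 to 2089) in cKO, and was found after thinning in 63.3% and 76.1% of these cells. S100a10 was at 734 CPM (713 to 755) and 1138 (1107 to 1171) in the same cells. Both lay under 40 CPM in all 5 neutrophil types of both libraries. S100a4 UMIs can hold some of Gm42674, which overlaps it on the same strand and is not in the matrices. S100a11 likewise shares 41.1% of its 50-base stretches with 3 genes that the matrices lack.

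T/NK-like cells (103 in Ctrl, 19 in cKO) also held both genes, at 192 CPM of S100a4 in Ctrl and 258 in cKO and at 509 and 602 CPM of S100a10. The 13 cDC-like cells of Ctrl were at 148 CPM of S100a4 and 491 of S100a10. S100a10 was also found in HSC/MPP-like cells (176 CPM in Ctrl, 296 in cKO) and in erythroid progenitor-like cells (77.8 and 105), where S100a4 was at 22.5 and 35.6 and at 9.70 and 4.67. S100a10 was thus the broader of the pair outside the neutrophil path.

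Within monocyte-like cells the members split by cell cycle. In Ctrl, 330 cells with cycling genes above the threshold held 821 CPM of S100a4 (793 to 849), against 1857 (1802 to 1914) in the 376 other cells. In cKO, 122 cycling and 184 other cells held 1387 and 2955 CPM. The log2 ratio of cycling over other cells was -1.18 and -1.09 for S100a4, beside 8.26% and 8.4% of genes at least 2-fold lower. S100a6 was lower in cycling cells too, with log2 ratios of -1.01 (1124 against 2266 CPM) and -0.86 (1837 against 3342 CPM). S100a10 went the other way, at 817 against 584 CPM in Ctrl and 1319 against 889 in cKO, log2 0.48 and 0.57. The directions of all 3 were the same in both libraries, and the cycling cells were deeper, with a median of 11010 UMIs against 5230 in Ctrl.

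**Figure D4:**
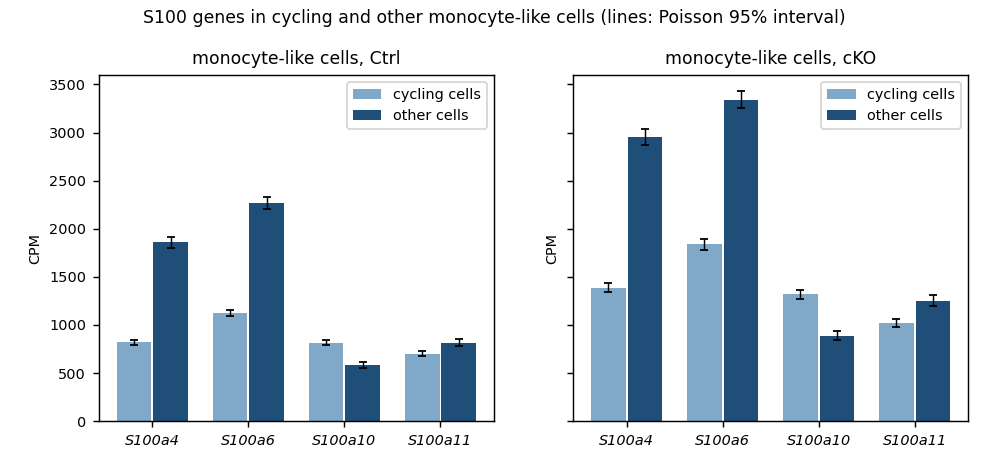
CPM of S100a4, S100a6, S100a10 and S100a11 in cycling and other monocyte-like cells of each library, as bars from 0 with lines for the 95% Poisson interval. S100a4 and S100a6 are lower and S100a10 is higher in cycling cells of both libraries.

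S100a13 was the most even member. In Ctrl it lay between 33.4 CPM in erythroid progenitor-like and 177 (168 to 187) in imNeu-like cells, a 5.31-fold range. In cKO it lay between 25.9 CPM in erythroid progenitor-like and 219 (205 to 233) in monocyte-like cells, an 8.46-fold range. In Ctrl the intervals of imNeu-like and monocyte-like cells overlapped, as did those of 3 more neighbours in the order.

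The cKO library was then compared with the Ctrl library within each type, over 56 ratios (7 members in 8 types). The ratio was above 0 on the log2 scale in 43, with an interval wholly above 0 in 36, below 0 in 12 and holding 0 in 8. The median over the 56 was 0.24. The median gene stood below 0 in every type, at -0.10 (HSC/MPP-like), -0.29 (ProNeu-like), -0.36 (PreNeu-like), -0.46 (imNeu-like), -0.41 (imNeu/mNeu-mixed), -0.48 (mNeu-like), -0.22 (monocyte-like) and -0.19 (erythroid progenitor-like). Intervals of the members are given against 0 below, and a ratio of 0 lies above the median gene of every type. Only 9 ratios reached 2-fold, 2 higher and 7 lower. With median-of-ratios or TMM scaling, 8 did, 4 higher and 4 lower, and the ratios of S100a8 and S100a9 in erythroid progenitor-like cells changed sign. By type, no member was called in ProNeu-like, PreNeu-like or monocyte-like cells, where 7.21%, 11.5% and 10.5% of genes were called in either direction. With median-of-ratios scaling S100a6 reached 2-fold in PreNeu-like (1.23) and imNeu/mNeu-mixed cells (1.05) as well. The share of all genes past 2-fold was not computed under median-of-ratios or TMM scaling, so calls under these have no background.

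S100a6 stood above 0 in all 8 types, from 0.14 (-0.04 to 0.32) in erythroid progenitor-like to 1.34 (1.12 to 1.56) in HSC/MPP-like cells, and its interval held 0 only in the former. The value for erythroid progenitor-like cells was -0.01 when cells under 2000 UMIs were left out. It was called higher in imNeu-like cells, at 1.08 (1.05 to 1.10), where 1.29% of genes were called higher and 20.9% in either direction, and in HSC/MPP-like cells, where 2.79% were higher and 9.05% in either direction. In imNeu-like cells, the share with an S100a6 UMI at a depth thinned to 1000 was 64.3% (61.7 to 66.8) in Ctrl and 84.7% (82.5 to 86.8) in cKO (unthinned 85.8% and 98.5%). In the other neutrophil types the log2 ratio was 0.53 (ProNeu-like), 0.86 (PreNeu-like), 0.64 (imNeu/mNeu-mixed) and 0.46 (mNeu-like), and it was 0.69 in monocyte-like cells. As a mean over cells the imNeu-like ratio was 0.94, under 2-fold, and the ProNeu-like ratio was 1.71.

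The mature marker Retnlg moved with S100a6 in both types where S100a6 was called. Retnlg, an mNeu gate marker, was at 2235 CPM in imNeu-like cells of Ctrl and 4131 in cKO. In the 10 maturation bins S100a6 was higher in cKO in all 10, with log2 ratios of 1.06, 0.82, 0.60, 0.84, 0.60, 0.67, 0.70, 0.53, 0.54 and 0.36 from the first bin to the last. Retnlg in the same bins had 1.03, 0.53, 0.45, 0.23, 0.26, 0.11, 0.11, 0.15, 0.24 and 0.07, lower than S100a6 in each. Retnlg is a gene of the mNeu score that sets these bins, which limits how far it can differ within a bin. The order of the 2 genes here is therefore no test. In HSC/MPP-like cells S100a6 was at 119 CPM (107 to 132) in Ctrl and 300.1 (269 to 334) in cKO, while Retnlg was at 214 and 493 CPM. There S100a6 stood at 1.14% and 2.09% of its mNeu-like level, and the thinned share of cells with an S100a6 UMI was 16.1% (12.0 to 20.9) and 18.4% (10.9 to 28.1). Retnlg stood at 0.581% and 1.22% of its mNeu-like level there, below S100a6. The part of mature neutrophil RNA in the S100a6 ratio was not tested.

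S100a11 was above 0 in 7 of 8 types. Its log2 ratio was 0.59 in monocyte-like, 0.42 in HSC/MPP-like, 0.37 in mNeu-like and 0.40 in imNeu-like cells, and 0.10 to 0.25 in the other neutrophil types, with -0.26 in erythroid progenitor-like cells. In the maturation bins its log2 ratio lay between 0.21 and 0.42 with an interval above 0 in 10 of 10. No ratio of S100a11 reached 2-fold.

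S100a8 and S100a9 differed between the libraries by less than 2-fold in every type, and moved alike. In the neutrophil types the log2 ratio of S100a8 was 0.18 to 0.35 and that of S100a9 0.14 to 0.21, each highest in mNeu-like cells. These ratios of summed UMIs stood above those of 85.3% to 93.0% of genes tested for S100a8 and 85.1% to 91.4% for S100a9. The order of the types differed for the median cell. In ProNeu-like cells it went from 8802 to 13320 CPM of S100a8 and from 4665 to 7699 of S100a9. In mNeu-like cells it went from 107155 to 136041 and from 148927 to 176486 CPM. The ProNeu-like bins differed in their numbers of cells between Ctrl and cKO. The lowest bin, at 5679 and 5944 CPM of S100a8, held 277 and 313 cells. The second, at 11977 and 22792 CPM, held 246 and 93. The highest held 29 and 95 cells, with medians of 17443 and 1642 UMIs. The part of this mix in the ProNeu-like median was not tested. Across the maturation bins S100a8 lay between 0.20 and 0.41 and S100a9 between 0.13 and 0.27, all with intervals above 0. In monocyte-like cells, where the level was low, the summed S100a8 ratio was 0.41 while the median cell went down, from 3146 to 2621 CPM. In erythroid progenitor-like cells both were below 0, at -0.10 and -0.09.

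S100a4 and S100a10 differed in direction between monocyte-like and neutrophil-like cells. In monocyte-like cells the log2 ratio was 0.78 (0.73 to 0.82) for S100a4 and 0.63 for S100a10. Both were called lower in imNeu-like (-1.18 and -1.23), imNeu/mNeu-mixed (-2.65 and -1.69) and mNeu-like cells (-1.61 and -1.89), where 19.6%, 17.8% and 22.7% of all genes were called lower and 20.9%, 20.6% and 24.7% in either direction. As a mean over cells the S100a10 ratio in imNeu-like cells was 0.17. Those levels were under 20 CPM in either library. Cells were deeper in cKO, with medians of 4564 UMIs in Ctrl and 10581 in cKO in imNeu-like cells. The medians were 3581 and 7740 in imNeu/mNeu-mixed and 2538 and 6235.5 in mNeu-like cells. Mki67, a gene of the cycling list used in the gate, was lower in cKO too. It stood at 112 and 87.3 CPM in the first maturation bin and at 54.7 and 12.0 in the last. The part of depth in these ratios was not tested. Monocyte-like cells, the type with most of both transcripts, were 8.03% of kept cells in Ctrl and 5.72% in cKO, and their part in the neutrophil ratios was not tested. S100a4 in erythroid progenitor-like cells was also called lower (-1.06, beside 9.62% of genes lower and 11.3% in either direction), from 9.70 to 4.67 CPM. With median-of-ratios or TMM scaling this call was lost, as were those of S100a4 and S100a10 in imNeu-like cells. S100a10 was above 0 in HSC/MPP-like (0.76), erythroid progenitor-like (0.43) and ProNeu-like cells (0.36).

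S100a13 had an interval above 0 in 2 types, ProNeu-like cells and monocyte-like cells (0.44, 0.31 to 0.57), and its interval held 0 in the other 6. Its ratio still stood above those of 85.4% of genes tested in PreNeu-like and 87.3% in imNeu-like cells. In imNeu/mNeu-mixed and mNeu-like cells this was 82.1% and 86.9%. It was 81.0% in HSC/MPP-like and 36.4% in erythroid progenitor-like cells.

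**Figure D5:**
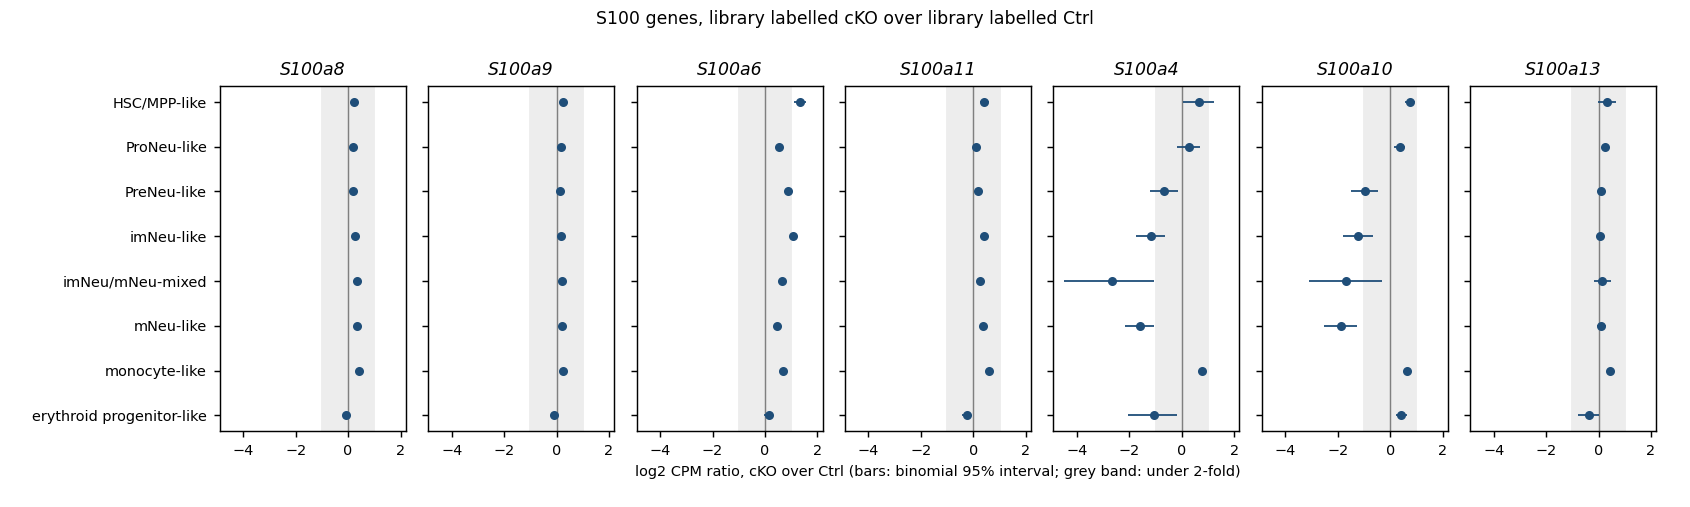
Log2 CPM ratio of the library labelled cKO over that labelled Ctrl for each S100 gene in 8 cell types, with 95% binomial intervals as bars and a grey band for ratios under 2-fold. S100a6 is at or above 0.14 in all 8 types, and S100a4 and S100a10 lie above 0 in monocyte-like and below -1 in imNeu-like and mNeu-like cells.

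Of the other genes with an S100 symbol, receptors and binding partners, 27 were listed and 26 were in the matrices. Among 11 other genes with an S100 symbol, not all of which encode an S100 protein, only S100a1 reached 50 CPM in some type. It was at 162 CPM in ProNeu-like cells of Ctrl and 181 in cKO. Of 6 receptors, Bsg, a receptor reported for S100a9, was highest in erythroid progenitor-like cells (363 and 479 CPM), and Cd33 was highest in mNeu-like cells (654 and 556). Tlr4 and Ager reached at most 37.6 and 11.5 CPM. Both were highest in mNeu-like cells of cKO, a type with high calprotectin transcripts.

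The binding partners of the abundant members were better represented, with 8 of 9 at 50 CPM or more. Anxa1, partner of S100a11, was at 3932 CPM in imNeu-like cells of Ctrl and 5271 in cKO, and at 1832 and 2302 in mNeu-like cells. Anxa2, partner of S100a10, was at 1383 and 1673 CPM in mNeu-like cells, where S100a10 was near the floor, and at 568 and 882 CPM in monocyte-like cells (log2 0.63). Cacybp, partner of S100a6, was at 19.2 and 10.1 CPM in mNeu-like cells, where S100a6 was highest, and peaked in erythroid progenitor-like cells (254 and 302). Myh9, partner of S100a4, was at 526 and 482 CPM in monocyte-like and 1045 and 954 in mNeu-like cells. The levels of a member and its partner did not rank the types alike in these pairs. The remaining partners at that level were Anxa6 (at most 128 CPM), Anxa11 (422), Sdcbp (294) and Ahnak (1325 CPM in monocyte-like cells of Ctrl and 919 in cKO). Over the 26 genes, 8 were at least 2-fold apart between the libraries in some type, and these 8 reached at most 26.4 CPM in the types concerned. In a single type 7.21% to 24.7% of all genes were that far apart. The share of all genes that were so in any of the 8 types was not computed, so the count has no like background. Ahnak, a large scaffold that binds S100a10 with annexin A2, was lower in 6 of 8 types, in each of which it lay at or under 16.3 CPM.

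The genes whose levels ranked most like each member were taken from 5514 genes by Pearson r of log2(CPM + 1) over 16 profiles (8 types in each library). The profiles of a library share its depth and free RNA, so r is a description only. S100a8 and S100a9 were closest to each other (r = 0.998). Next in order came Pglyrp1, Wfdc21, Lin28a and Mapk13 for S100a8, and Pglyrp1, Mapk13, Wfdc21 and Itgb2l for S100a9. S100a6 was closest to Tarm1 (0.990), then Slfn1, Pira2, Cd300lb and Bst1. S100a11 was closest to Pgd (0.975), an enzyme of the pentose phosphate pathway, then Slpi (a gate marker), Atp11a, Sgk1 and Slc16a3. S100a4 was closest to Dusp22 (0.984), then Ahnak, Ms4a4c, Cd302 and Arl5c, and S100a10 to Crip1 (0.983), then Cd2ap, Szrd1, Txndc5 and Rbm7. S100a13 had the lowest leading value (Hk2, 0.944), followed by Scamp2, Sh3bgrl3, Sptlc2 and Myo1g.

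Across single cells thinned to 1000 UMIs, S100a8 and S100a9 had a Spearman rho of 0.84 in ProNeu-like cells of Ctrl and 0.90 in cKO. In imNeu-like cells rho was 0.63 and 0.60 and in mNeu-like cells 0.73 and 0.41, so rho was highest in ProNeu-like cells. In monocyte-like cells S100a4 and S100a6 had a rho of 0.45 and 0.26, and S100a8 and S100a9 had 0.50 and 0.52. S100a4 and S100a10 had only 0.057 and 0.074 there. For S100a6 and S100a11 rho was 0.20 and 0.25 in monocyte-like and 0.17 and 0.17 in imNeu-like cells. It was 0.13 and 0.0017 in mNeu-like cells.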

How the data were processed

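The deposited matrices hold raw UMI counts per gene and cell, which the authors made with Cell Ranger 5.0.0 on the mm10 build (GRCm38), per the submitters' processing notes. No column was left unused (0). Cells with 200 to 9000 detected genes, at most 30% mitochondrial UMIs and at least 1000 UMIs were kept. A cell was typed from 19 marker lists: each list's share of UMIs was divided by its 99.5th percentile, and the leading list had to reach 0.25, show 3 markers and lead the next by 1.5 times. Cycling genes at 20 or more per 10000 UMIs split PreNeu-like from imNeu-like cells and cycling from other monocyte-like cells. The study used DoubletFinder; no doublet caller was run here, and cells scoring for unrelated lists stayed untyped. Types with at least 30 cells in both libraries were compared, except ProNeu/PreNeu-mixed cells (38 and 185 cells, median 16441.5 and 1824 UMIs), left out after that depth was seen.

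UMIs were summed per type and library, and genes with at least 10 UMIs over both libraries were tested for a 2-fold ratio. The ratio intervals, the 2-fold calls and the thinning were tested on simulated counts. Those for the ratios were drawn as sums per type, without spread between cells. Named were all 7 members, Map4k4, the listed S100 genes and partners with at least 50 CPM in a type, and the 5 genes most like each member. B-like, T/NK-like, cDC-like, macrophage-like, plasma cell-like, megakaryocyte-like, Retnlg and Mki67 values, and genes of the granule scores, were added after values were seen. The members, lists and rules were chosen with earlier results of these data known. Alternatives tried were UMI floors, a mitochondrial ceiling of 10%, a stricter gate, other scalings (TMM factors from edgeR 4.0.16 in R 4.3.3) and other low-count filters. Python 3.11.15, numpy 2.4.6, scipy 1.17.1, pandas 2.3.3 and matplotlib 3.10.9 were used.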

Additional observations from a re-analysis of the deposited data

Results flagged for a closer look

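S100a4 and S100a10 lay on opposite sides of 0 in 2 cell types, and the difference between the types was not tested. The log2 ratio of the library labelled cKO over that labelled Ctrl was 0.78 in monocyte-like and -1.61 in mNeu-like cells for S100a4. For S100a10 it was 0.63 and -1.89. The mNeu-like values rest on 73 and 50 UMIs of S100a4 and on 64 and 36 UMIs of S100a10, in Ctrl and cKO. The median mNeu-like cell held 2538 UMIs in Ctrl and 6235.5 in cKO.

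Barcodes under the floor of 1000 UMIs entered no comparison. S100a8 and S100a9 made up 7.76% (7.71 to 7.82) of the UMIs in 1170 such barcodes of Ctrl and 13.8% (13.7 to 13.8) in 1371 of cKO. These shares lay below the 10.8% and 18.8% of all kept cells and above the 0.781% and 0.977% of monocyte-like cells.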

How the results depend on the processing

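Every ratio compares 1 library with 1 library, so genotype, mice and library preparation cannot be told apart. No paired analysis was possible because the groups share fewer than 2 replicate numbers, and no replicate could be left out. The deeper cells of cKO bear on shares of cells with a UMI: without thinning the share of imNeu-like cells with S100a6 was 85.8% in Ctrl and 98.5% in cKO, and at 2000 UMIs 73.8% and 91.1%. The share of S100a8 and S100a9 in imNeu-like cells was 28.8% and 33.2% at a floor of 500 UMIs, 29.1% and 33.4% at 2000, 28.1% and 32.2% as a mean over cells, and 29.3% and 33.2% under the stricter gate. Under that gate the S100a9 to S100a8 ratio in ProNeu-like cells was 0.535 in the lowest bin of Ctrl, and 1.15 in Ctrl and 1.20 in cKO from a score ratio of 0.2 up. As a mean over cells, the S100a10 ratio in imNeu-like cells was 0.17 on the log2 scale in place of -1.23. Of the 56 ratios, 8 changed sign as a mean over cells, 3 under the stricter gate, 2 under each other scaling and 1 at a floor of 2000, and the cause was not tested. Calls of 2-fold numbered 9, and 7 with at least 50 UMIs, 8 at a floor of 500, 10 at 2000 and 12 with ProNeu/PreNeu-mixed cells added. As a mean over cells 6 were higher and 3 lower. Shares of all genes past 2-fold were computed only for the settings of the 9 calls. Among genes with at least 200 CPM, 20 of the 35 most alike genes were shared with the list given. Splits of cycling cells at 10 or 40, the mixed cells and the checks of the ProNeu-like ratio were chosen after seeing the data.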
